A study of Homo sapiens with 12 samples.

Results

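The 77 genes described here encode proteins of the mitochondrial ribosome and were chosen by symbol, MRPL or MRPS followed by a number with an optional letter A to C, out of 24407 features in the tables. Their counts are the sum of 112 protein-coding RefSeq transcripts, 57 of the genes having 1 such transcript and 20 having several. RNA was sequenced from HEK293T, an established line from human embryonic kidney, and the 12 libraries form 4 groups of 3. Every group received guide RNAs for 4 sites at IL1RN, the gene of the interleukin 1 receptor antagonist, by transient transfection. The groups differ in the protein supplied with the guides. They are dCas9-p300 core, which carries the catalytic part of the histone acetyltransferase p300, dCas9-p300 D1399Y, the same part without acetyltransferase activity, dCas9-VP64, which carries a viral activation domain, and dCas9 alone, which binds DNA without cutting it. The labels state that cells were transfected in triplicate and nothing further about separate cultures, so the p-values cover only spread among these samples, which may be technical.

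The mitochondrial ribosome makes the few respiratory chain subunits that are still encoded by mitochondrial DNA. All of its proteins are encoded in the nucleus, made on cytosolic ribosomes and imported, and they assemble on ribosomal RNA that mitochondria transcribe themselves. Many are descendants of bacterial ribosomal proteins, while others are found only in mitochondria and replace or surround ribosomal RNA that was lost in evolution. The symbol does not always give the position, since MRPS18A and MRPS30 are proteins of the large subunit despite their letter S. By these positions 51 of the genes belong to the large and 26 to the small subunit, and 45 have a bacterial counterpart while 32 are mitochondria-specific.

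The shallowest library was dCas9 replicate 3 (2442960 counts) and the deepest was replicate 2 of the p300 core (5154627 counts). IL1RN, the targeted gene, was at 73.4 to 89.0 CPM (from edgeR, on TMM-scaled library sizes) in the p300 core libraries, at 6.49 to 9.31 CPM with D1399Y, at 19.4 to 31.4 CPM with VP64 and at 4.24 to 9.42 CPM with dCas9. Of the markers of this line, VIM lay at 167 to 238 CPM and KRT18 at 59.0 to 104 CPM over the 12 libraries. KRT8 lay at 40.4 to 90.4 and GATA3 at 12.8 to 33.9 CPM. LHX1 (6.64 to 11.3 CPM), EPCAM (3.21 to 11.2) and PAX2 (1.62 to 7.87) were low. Among markers of other cell types, COL1A1 lay higher than these, at 12.6 to 21.3 CPM, and LYZ at 1.86 to 5.65 CPM. PECAM1, PTPRC and ALB reached at most 2.36, 1.27 and 0.753 CPM, and CD3E of T cells had no count in any library. Over all genes, dCas9 replicate 3 stood apart. Its counts differed from those of dCas9 replicates 1 and 2 by a chi-square of 18.3 and 21.2 per degree of freedom over genes, against 2.56 to 6.49 for all other pairs of replicates, and 32.3% of all 14621 genes tested had their highest and 32.1% their lowest level there. Fold changes and medians against dCas9 are given with and without it.

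All 77 genes passed the filter on low counts, with 31 (MRPL54) to 973 (MRPL19) counts per library. Expressed per length, with counts summed over transcripts, the highest 6 belonged to the large subunit. MRPL37 came first at 81.9 CPM per kb of transcript (mean of 12 libraries), followed by MRPL55 at 79.7, MRPL21 at 76.3, MRPL3 at 73.97, MRPL39 at 68.96 and MRPL47 at 64.8 CPM per kb. MRPL3 is a core protein with a bacterial counterpart, and MRPL37 and MRPL39 are mitochondria-specific. By the lengths used, the lowest were MRPS23 at 9.83, MRPS17 at 10.3, MRPL50 at 10.5 and MRPL22 at 11.1 CPM per kb. MRPL22 has a bacterial counterpart that lines the tunnel through which the new chain leaves. The transcript lengths used for MRPS23, MRPL50 and MRPL22, 5621, 3332 and 3105.5 bases, are among the longest of the 77.

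**Figure D1:**
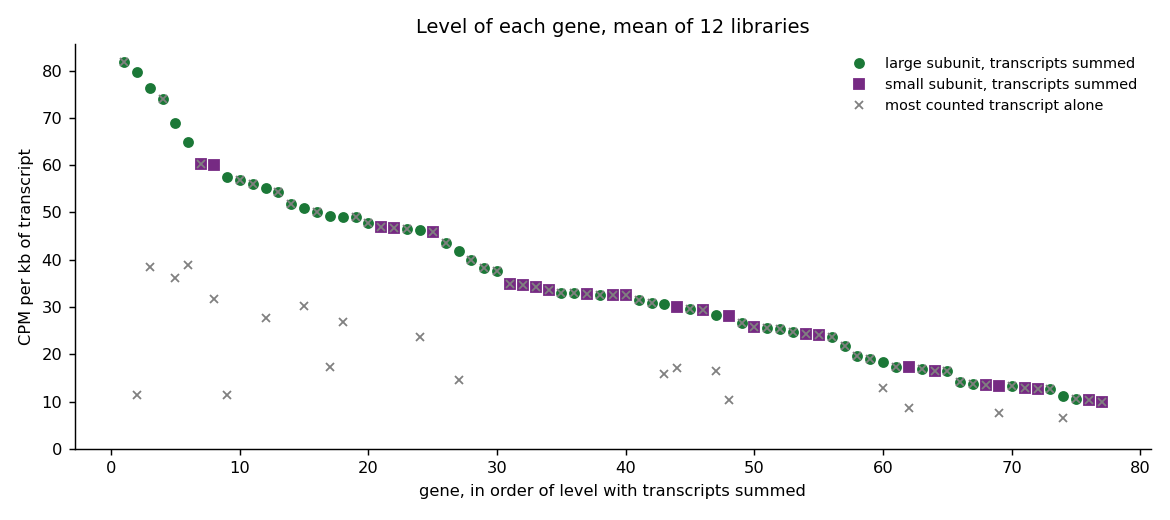
Level of each of the 77 genes in CPM per kb of transcript (vertical axis, mean of 12 libraries) in order of that level (horizontal axis). Crosses give the counts of the most counted transcript of each gene alone, over the same median length of the gene. Levels run from 9.83 to 81.9 CPM per kb, and the crosses fall below the filled symbols only for the 20 genes with several transcripts.

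The order of neighbouring genes was not fixed by these data. The rank of MRPL37 varied by an SD of 1.31 places over the 12 libraries and that of MRPL19 by 13.0, and Spearman's rho of the 77 levels between pairs of libraries lay between 0.844 and 0.986 as a description. The choice of transcripts moved some genes further. The counts of the most counted transcript of each gene were also taken alone. They were divided by the same median length of the gene, not by the length of that transcript. MRPL37 and MRPL3 then took places 1 and 2 and MRPS34, of the small subunit, place 3 at 60.2 CPM per kb. MRPL47, MRPL21 and MRPL39 took places 17, 18 and 21, so the highest 6 then did not all belong to the large subunit. For MRPL47 the length used was 1021.5 bases, against 1370 for that transcript, by which its level would be lower. MRPL55 was summed over 8 transcripts and, with the counts of 1 alone, stood at 11.4 CPM per kb and place 69. MRPL52, summed over 6, stood at 11.3 CPM per kb and place 70. Their most counted transcripts, of 864 and 1118 bases, are also longer than the 685 and 895 bases used. The lowest 4 by these counts were MRPL22 (6.47 CPM per kb), MRPS11 (7.66), MRPS33 (8.65) and MRPS23 (9.83), with MRPL50 and MRPS17 at places 71 and 72. The treatment of reads common to several isoforms is not stated in the sources used here. The levels of the 20 genes with several transcripts are therefore uncertain, and over all 77 genes the 2 orders had a Spearman's rho of 0.753. The median level was 33.1 CPM per kb for the large subunit and 29.7 CPM per kb for the small subunit, with overlapping ranges of 10.5 to 81.9 and 9.83 to 60.2. The 77 genes had a median of 32.6 CPM per kb, against 145 for cytosolic ribosomal protein genes, 53.0 for nuclear-encoded respiratory chain subunit genes and 14.4 for all genes tested.

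The paralogs that descend from bacterial protein S18 were expressed side by side in every library. MRPS18B, of the small subunit, was the most abundant at 46.9 CPM per kb, followed by MRPS18A, of the large subunit, at 28.4 and MRPS18C, which takes the place of the bacterial protein, at 13.4. MRPS18A had 30.9, 25.4 and 23.6 CPM with the p300 core, 24.3, 15.2 and 30.3 CPM with D1399Y, 27.7, 21.4 and 25.8 CPM with VP64 and 21.2, 27.6 and 41.1 CPM with dCas9. MRPS18C had 19.5, 21.1 and 19.7 CPM with the p300 core, 22.4, 22.5 and 25.3 CPM with D1399Y, 25.5, 20.2 and 20.1 CPM with VP64 and 22.04, 20.2 and 26.4 CPM with dCas9. MRPS18A thus had its lowest value in D1399Y replicate 2 and its highest in dCas9 replicate 3, while MRPS18C stayed between 19.5 and 26.4 CPM. MRPS30, of the large subunit, had 72.4, 60.9 and 59.6 CPM with the p300 core, 69.5, 70.9 and 63.03 CPM with D1399Y, 70.3, 58.7 and 61.4 CPM with VP64 and 80.5, 65.7 and 70.1 CPM with dCas9, and these groups overlapped in all 5 comparisons.

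The genes moved together from library to library, and mostly between replicates of the same group. Relative to each gene's mean over the 12 libraries, the median of the 77 genes on the log2 scale was 0.11, -0.10 and -0.15 in replicates 1 to 3 of the p300 core, -0.025, -0.29 and 0.030 with D1399Y, 0.075, 0.12 and -0.12 with VP64, and 0.031, -0.12 and 0.47 with dCas9. dCas9 replicate 3 was the high library and D1399Y replicate 2 the low one. In dCas9 replicate 3, 73 of 77 genes lay above their own mean and 57 had their highest level, and in D1399Y replicate 2, 61 lay below it and 37 had their lowest. Over all genes tested, 32.3% had their highest level in dCas9 replicate 3 and 18.5% their lowest in D1399Y replicate 2. Across the 12 libraries the median correlation between pairs of members was 0.60, and 84.1% of pairs were above 0, as a description of points that share libraries and depth.

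**Figure D2:**
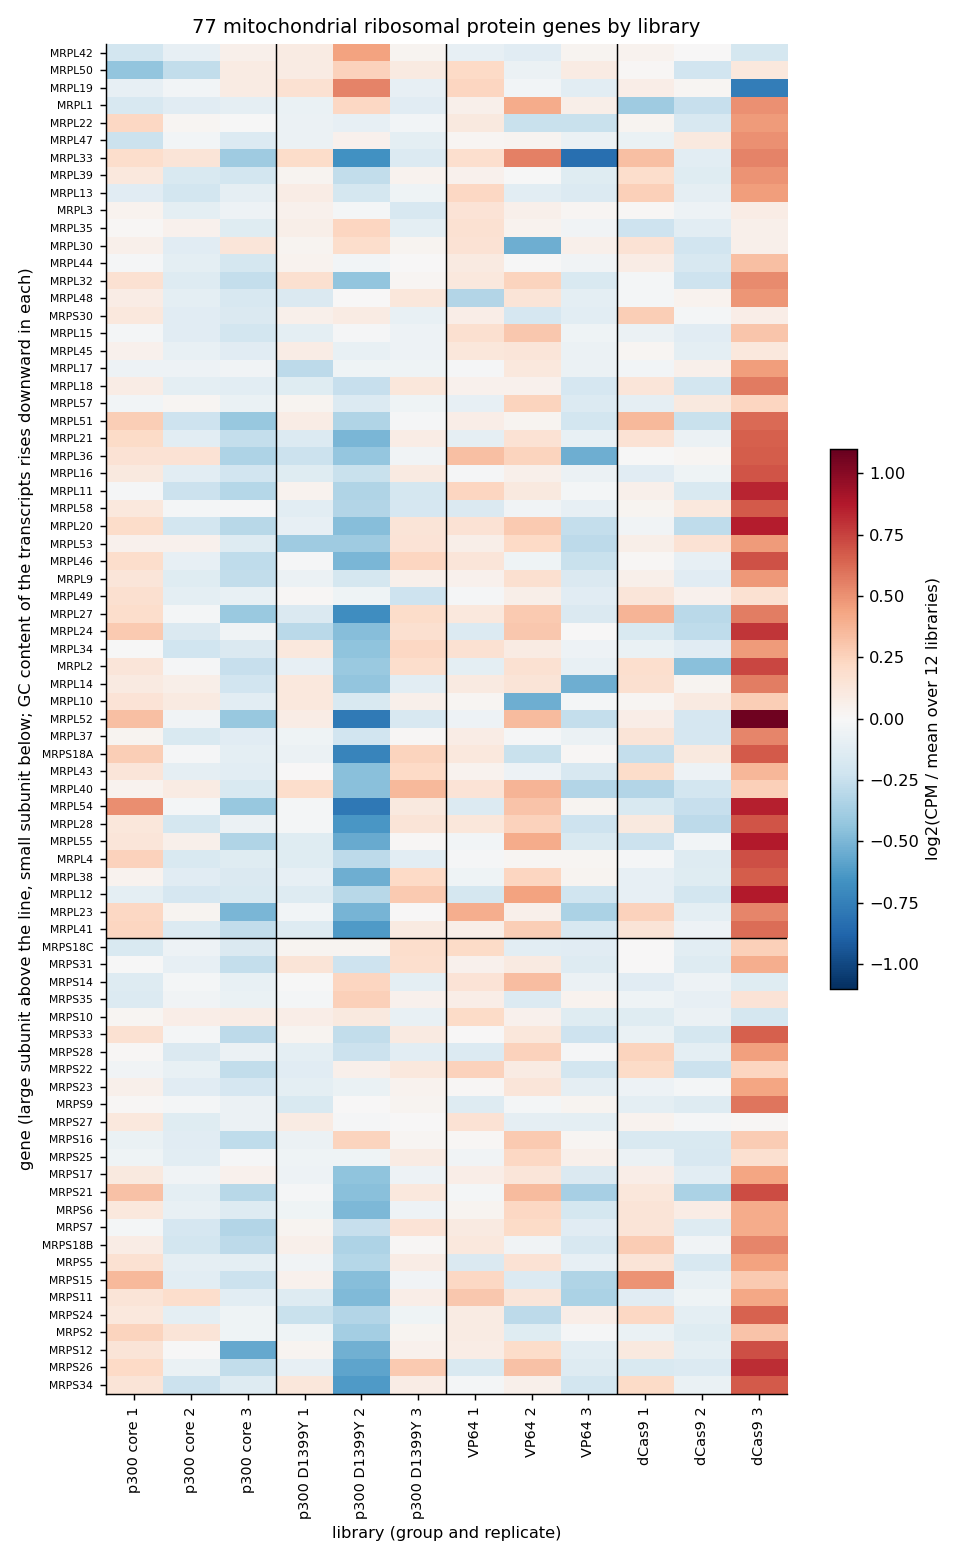
Log2 ratio of each gene's CPM to its mean over the 12 libraries (colour, red above and blue below the mean), with 1 row per gene, large subunit above the line and small subunit below it, and 1 column per library. The column of dCas9 replicate 3 is red for 73 of 77 genes, and that of D1399Y replicate 2 is blue for 61.

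The share of all counts held by the 77 genes showed the same libraries. It was 0.394%, 0.357% and 0.341% with the p300 core (mean 0.364% ± 0.027, SD, n = 3), 0.372%, 0.323% and 0.381% with D1399Y (0.359% ± 0.031), 0.389%, 0.392% and 0.356% with VP64 (0.379% ± 0.020) and 0.380%, 0.350% and 0.538% with dCas9 (0.423% ± 0.101). Without dCas9 replicate 3 every library lay between 0.323% and 0.394%, and the groups overlapped. The same library was the highest for cytosolic ribosomal protein genes, with a median of 0.49, and for respiratory chain subunit genes, with 0.53, both on the log2 scale. In bulk RNA a smaller number of cells of one kind and less RNA per cell cannot be told apart.

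**Figure D3:**
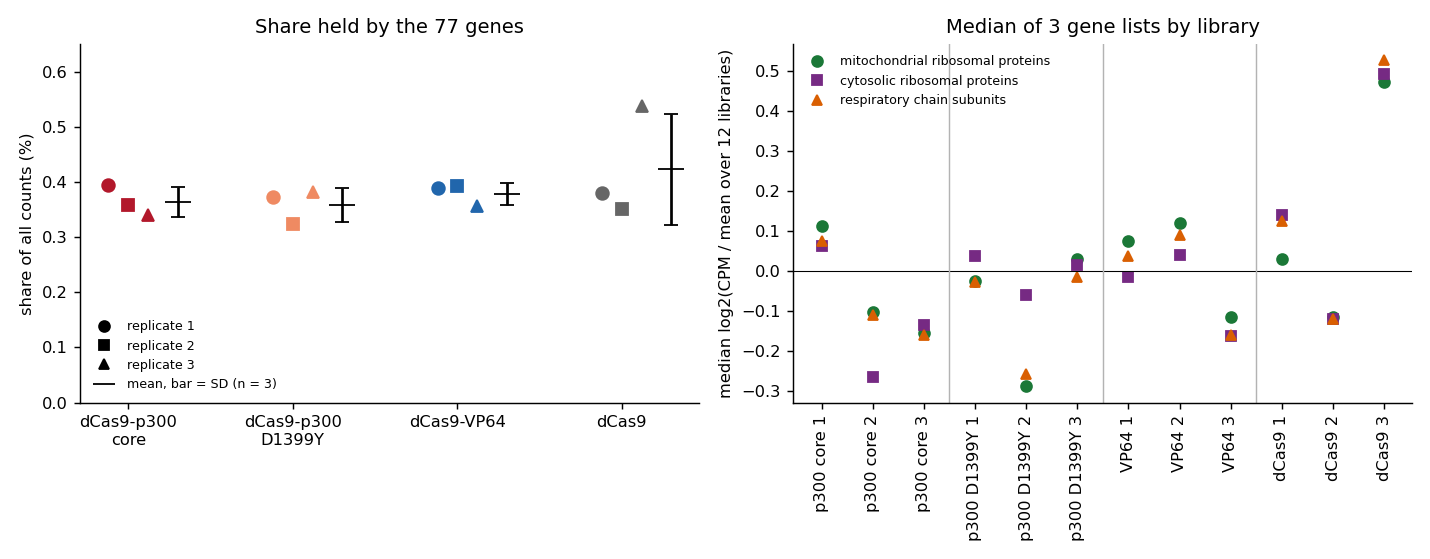
Left, share of all counts held by the 77 genes (percent, axis from 0) in each library, with group means and SD (n = 3). Right, median log2 ratio to the 12-library mean of 3 gene lists in each library. dCas9 replicate 3 holds the highest share, 0.538%, and the highest median of all 3 lists.

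Within these libraries the genes differed with the base composition and length of their transcripts. In dCas9 replicate 3 the 26 genes of lowest GC content (34.1% to 46.4%) had a median log2 ratio of 0.37, the middle 26 of 0.47 and the 25 of highest GC content (54.1% to 71.9%) of 0.66. In D1399Y replicate 2 the same sets had 0.020, -0.32 and -0.48. Across the 77 genes, Spearman's rho between the ratio and GC content was 0.58 in dCas9 replicate 3 and -0.74 in D1399Y replicate 2, and between the ratio and length -0.63 and 0.67. Other p300 libraries differed likewise. With GC content and with length, rho was 0.56 and -0.44 in core replicate 1 and -0.32 and 0.46 in core replicate 3. In D1399Y replicate 3 it was 0.33 and -0.13. The remaining libraries lay between -0.25 and 0.22 for GC content and between -0.27 and 0.33 for length. These are descriptions over genes of 1 library each. The highest count per base of any gene was 1.80 in dCas9 replicate 3 and between 3.93 and 5.40 in the other 11 libraries, while the highest of any member was 0.418. The part of depth, base composition and length in the results below was not tested beyond the values that stand beside them.

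Spread over the libraries differed widely among the genes. The highest level was 1.19 times the lowest for MRPL45, a large-subunit protein that faces the inner membrane, 1.22 times for MRPS27 and 1.26 times for MRPL3, while it was 3.65 times for MRPL52 and 3.25 times for MRPL54, both mitochondria-specific proteins of the large subunit. These 5 were picked after their values were seen, and the median over the 77 genes was 1.85. MRPL52 had 61.8, 47.6 and 36.5 CPM with the p300 core, 51.9, 28.3 and 43.4 CPM with D1399Y, 46.999, 62.3 and 40.8 CPM with VP64 and 51.4, 43.1 and 103 CPM with dCas9. MRPL19, a protein with a bacterial counterpart and also named for its values, ran the other way, with 179, 187 and 203 CPM with the p300 core, 215, 279.7 and 180.0 CPM with D1399Y, 225, 188 and 177 CPM with VP64 and 201, 194 and 113 CPM with dCas9. Its lowest level was in dCas9 replicate 3 and its highest in D1399Y replicate 2, and its transcript is long (3479 bases) and low in GC (38.3%).

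The sequence before the starts of the genes was also examined. Whether it has a part in their shared movement was not tested. RefSeq on GRCh38.p14 gave promoters for 69 of the 77 genes. Within 300 bases around the start (250 before and 50 after), the letters CCGGAAG, a core of ETS family sites such as those of GABPA, were found on either strand in 42.0% of the 69 promoters, against 10.7% of 27305 promoters of all genes and 18.7% of 11257 promoters of genes tested. The letters AAGATGGCG, a core of YY1 sites, were found in 18.8% of the 69, against 1.85% of all and 3.80% of tested genes. The letters GCATGCGC, a core of NRF1 sites, were found in 8.70%, against 3.27% and 5.499%, and the CCAAT box (CCAAT) in 28.99%, against 35.7% and 36.9%. The same ETS letters were in 33.3% of 69 cytosolic ribosomal protein promoters and 27.8% of 72 respiratory chain promoters. A promoter counted once per motif, matches of 2 motifs were allowed to overlap, and a match is a description of letters and no evidence of binding.

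The 250 bases before the start are printed, 5′ to 3′ on the strand of the gene, with matches to these motifs in capitals, for 5 genes. On GRCh38.p14, MRPL58 (chr17:75012420-75012669, plus strand) and MRPS18B (chr6:30617590-30617839, plus strand) had the smallest unadjusted p in comparisons given below, MRPS34 (chr16:1773135-1773384, minus strand) held 3 ETS matches and MRPL52 (chr14:22829637-22829886, plus strand) had the widest spread and held 1 NRF1 and 2 YY1 matches. MRPS11 (chr15:88467458-88467707, plus strand) shares 181 bases of this window with its neighbour MRPL46 on the minus strand and held no match.
MRPL58: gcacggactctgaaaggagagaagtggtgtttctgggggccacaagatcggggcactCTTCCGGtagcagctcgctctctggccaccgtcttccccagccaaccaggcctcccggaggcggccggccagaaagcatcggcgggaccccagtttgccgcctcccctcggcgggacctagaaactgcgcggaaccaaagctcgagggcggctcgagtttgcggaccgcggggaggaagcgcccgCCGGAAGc
MRPS18B: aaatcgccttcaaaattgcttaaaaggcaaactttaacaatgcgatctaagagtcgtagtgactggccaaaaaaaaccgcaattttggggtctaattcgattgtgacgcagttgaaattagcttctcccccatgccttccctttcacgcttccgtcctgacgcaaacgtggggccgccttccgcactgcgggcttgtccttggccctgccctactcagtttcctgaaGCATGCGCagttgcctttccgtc
MRPS34: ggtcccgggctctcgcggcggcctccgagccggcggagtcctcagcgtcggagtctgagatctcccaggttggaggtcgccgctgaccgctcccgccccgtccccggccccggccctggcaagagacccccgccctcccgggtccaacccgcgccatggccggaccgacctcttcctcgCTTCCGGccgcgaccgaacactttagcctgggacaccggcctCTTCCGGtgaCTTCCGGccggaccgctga
MRPL52: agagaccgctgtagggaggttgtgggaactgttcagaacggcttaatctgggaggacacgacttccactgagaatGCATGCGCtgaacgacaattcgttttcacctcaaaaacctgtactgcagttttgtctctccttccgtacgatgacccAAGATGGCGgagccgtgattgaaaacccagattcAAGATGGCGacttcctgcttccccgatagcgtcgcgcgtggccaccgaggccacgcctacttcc
MRPS11: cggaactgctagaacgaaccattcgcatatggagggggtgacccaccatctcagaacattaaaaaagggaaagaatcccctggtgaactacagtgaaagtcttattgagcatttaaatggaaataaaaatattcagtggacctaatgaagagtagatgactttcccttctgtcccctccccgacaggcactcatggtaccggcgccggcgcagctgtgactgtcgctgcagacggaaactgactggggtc

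The neighbours MRPS11, of the small subunit, and MRPL46, of the large subunit, start back to back on chromosome 15. MRPS11 had 31.7, 33.04 and 26.5 CPM with the p300 core, 25.95, 20.4 and 30.3 CPM with D1399Y, 35.4, 31.7 and 22.4 CPM with VP64 and 26.3, 27.8 and 38.8 CPM with dCas9. MRPL46 had 37.8, 30.9 and 27.03 CPM with the p300 core, 32.7, 23.1 and 38.8 CPM with D1399Y, 36.1, 31.9 and 27.8 CPM with VP64 and 33.3, 30.9 and 53.9 CPM with dCas9. Both were highest in dCas9 replicate 3 and lowest in D1399Y replicate 2, and they lay on the same side of their own means in 9 of 12 libraries.

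The p300 core against dCas9 asks what the acetyltransferase altered beside its target. None of the 77 genes passed the test (edgeR quasi-likelihood test, Benjamini-Hochberg over 14621 genes, threshold 0.05), where 0.0137% of all genes did. At an unadjusted p under 0.05 there were 4 members (5.19%), where 3.08% of all genes were, and DESeq2 gave 0 members past the threshold and 3 at an unadjusted p under 0.05. Without dCas9 replicate 3, 0 members had an unadjusted p under 0.05 (edgeR), against 2.88% of all genes. MRPS18B had 75.01, 61.7 and 57.99 CPM with the p300 core, against 85.9, 69.02 and 103 CPM with dCas9, a log2 fold change of -0.40 ± 0.17 (SE). MRPL11, at the base of the stalk that recruits translation factors, had 61.8, 52.6 and 49.9 CPM with the p300 core, against 64.7, 55.2 and 112 CPM with dCas9, a log2 fold change of -0.48 ± 0.22. In both genes the groups overlapped, with core replicate 1 above the lowest dCas9 library. MRPL47 (-0.33 ± 0.15), MRPL13 (-0.37 ± 0.17), MRPS7 (-0.33 ± 0.17) and MRPL37 (-0.28 ± 0.16) were next by unadjusted p, and all 6 had an adjusted p of 0.872 (edgeR). Of these, MRPL13 alone had groups that did not overlap, with 37.5, 35.5 and 38.3 CPM with the p300 core, against 49.5, 38.3 and 56.5 CPM with dCas9, and core replicate 3 and dCas9 replicate 2 rounded to the same level.

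Without dCas9 replicate 3 the same log2 differences were -0.26 for MRPS18B, -0.13 for MRPL11, -0.16 for MRPL47, -0.24 for MRPL13, -0.18 for MRPS7 and -0.074 for MRPL37. The core libraries lay below every dCas9 library for 3 members (MRPL13, MRPL17 and MRPL53, 3.90%), a share near the 3.16% of all genes. They lay above every dCas9 library for 1 member, MRPS10 of the small subunit (1.30%, against 3.74% of all genes), with 55.2, 57.1 and 57.5 CPM with the p300 core, against 49.5, 51.9 and 47.5 CPM with dCas9. The median log2 difference of the 77 genes was -0.23, with 7 above 0, against 0.0062 over all genes tested. It was -0.031, with 29 above 0, without dCas9 replicate 3, -0.15 in the 10 libraries labelled CV41 alone (which leave out core replicate 3), -0.14 without core replicate 3 and -0.11 with an offset for transcript length and GC content, where the median of all genes was -0.057.

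D1399Y against dCas9 sets the inactive p300 protein against the protein that carries none. No member passed the test here either, where 0.00684% of all genes did, and 3 members (3.90%) had an unadjusted p under 0.05 against 6.07% of all genes (DESeq2: 0 and 4 members). MRPL58, a large-subunit protein related to release factors that frees stalled ribosomes, had the smallest p. It had 40.6, 35.03 and 38.6 CPM with D1399Y, against 44.9, 47.8 and 70.4 CPM with dCas9, a log2 fold change of -0.51 ± 0.17 with an adjusted p of 0.622 (edgeR), and its groups did not overlap. Its dCas9 values of 44.9 and 47.8 CPM without replicate 3 still lay above all D1399Y libraries, with a log2 difference of -0.29. MRPS24, of the small subunit, had 19.2, 18.1 and 22.1 CPM with D1399Y, against 26.8, 21.2 and 36.2 CPM with dCas9, a log2 fold change of -0.49 ± 0.21 (-0.28 without dCas9 replicate 3), with overlapping groups. MRPS6, also of the small subunit, had 30.8, 22.5 and 30.6 CPM with D1399Y, against 35.3, 33.8 and 42.6 CPM with dCas9, a log2 fold change of -0.40 ± 0.18 (-0.31 without dCas9 replicate 3), with no overlap. MRPL21 (-0.45 ± 0.21), MRPL52 (-0.66 ± 0.32) and MRPL11 (-0.45 ± 0.22) overlapped between groups and had the same adjusted p of 0.622 (edgeR). Without dCas9 replicate 3 their log2 differences were -0.22, -0.20 and -0.100 in that order.

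D1399Y lay below every dCas9 library for 5 members (MRPL17, MRPL36, MRPL49, MRPL58 and MRPS6, 6.49%), against 3.72% of all genes, and above it for 0 members, against 3.52%. The median log2 difference of the 77 genes was -0.26, with 14 above 0, against -0.00028 over all genes tested. Without dCas9 replicate 3 it was -0.030, with 31 above 0, without D1399Y replicate 2 it was -0.15, and with the length and GC offset -0.094, where all genes had -0.043. In the CV41 libraries, which leave out D1399Y replicate 3, it was -0.33.

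VP64 against dCas9 gave no member past the test, and 0% of all genes passed it. MRPL58 was the 1 member (1.30%) at an unadjusted p under 0.05, where 3.08% of all genes were (DESeq2: 0 and 1). It had 39.3, 42.9 and 41.3 CPM with VP64, against 44.9, 47.8 and 70.4 CPM with dCas9, a log2 fold change of -0.39 ± 0.17 with an adjusted p of 0.924 (edgeR), and -0.18 without dCas9 replicate 3. MRPL10, which anchors the stalk proteins, had 75.7, 51.1 and 73.4 CPM with VP64, against 75.7, 79.97 and 90.04 CPM with dCas9, a log2 fold change of -0.29 ± 0.16 (-0.23 without dCas9 replicate 3). Replicate 1 of VP64 (75.6932 CPM) lay only just below replicate 1 of dCas9 (75.7321 CPM), so the groups did not overlap by a narrow margin. VP64 replicate 2 was the low library. Next were MRPS18B (-0.30 ± 0.17), MRPS34 (-0.35 ± 0.22), MRPS14 (0.26 ± 0.16) and MRPS24 (-0.32 ± 0.21), with overlapping groups and the same adjusted p. Without dCas9 replicate 3 their log2 differences were -0.16, -0.13, 0.24 and -0.11 in that order. MRPS14, a small-subunit protein with a bacterial counterpart, was the 1 of the 6 with a higher mean in VP64, at 29.9, 34.2 and 25.8 CPM with VP64, against 24.6, 25.9 and 24.5 CPM with dCas9.

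VP64 lay below every dCas9 library for 2 members (MRPL10 and MRPL58, 2.60%), against 2.67% of all genes, and above it for 0, against 3.34%. The median log2 difference of the 77 genes was -0.18, with 12 above 0, against 0.0017 over all genes tested. It was 0.052, with 47 above 0, without dCas9 replicate 3, -0.30 without dCas9 replicate 2, -0.073 without VP64 replicate 3 and -0.10 with the length and GC offset, where all genes had -0.057. All VP64 and dCas9 libraries are labelled CV41. The 3 comparisons with dCas9 share its libraries and are not independent of each other.

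**Figure D4:**
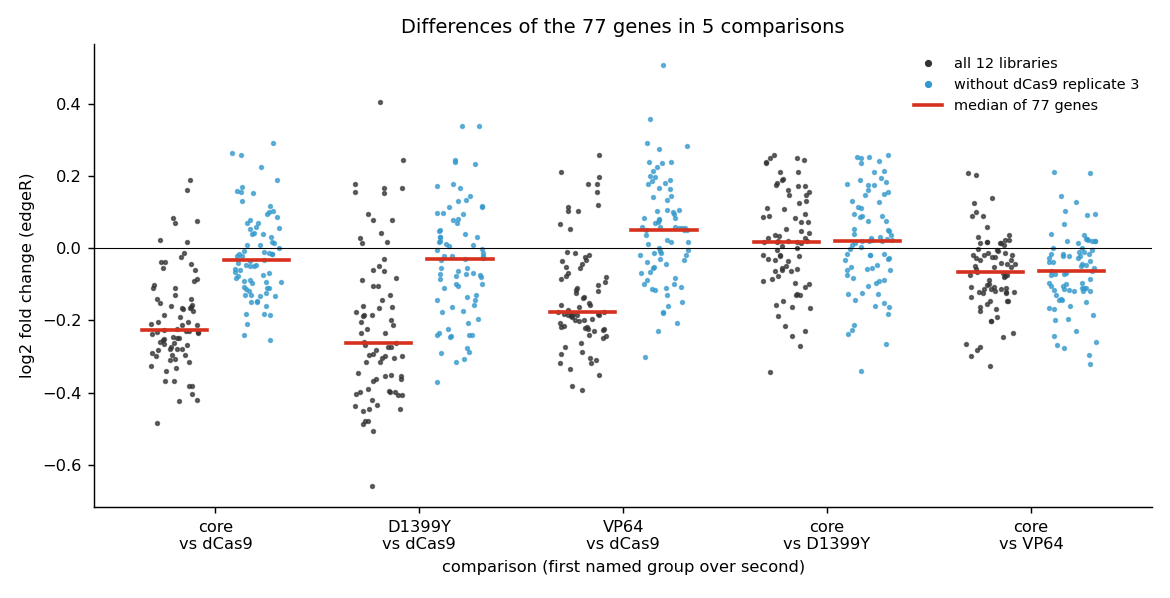
Log2 fold change (edgeR, vertical axis) of each of the 77 genes in 5 comparisons, with all 12 libraries (dark points) and without dCas9 replicate 3 (blue points), and the median as a red line. The medians against dCas9 are -0.23 (p300 core), -0.26 (D1399Y) and -0.18 (VP64) with all libraries, and -0.031, -0.030 and 0.052 without that library.

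The p300 core against D1399Y asks about the acetyltransferase activity. Its fold changes set these groups against each other, but its p-values and standard errors rest on a spread estimated from all libraries, dCas9 included. No member passed the test (0.00684% of all genes did) and 0 members had an unadjusted p under 0.05, against 1.86% of all genes (DESeq2: 0 and 0). Without dCas9 replicate 3, 2 members (2.60%) had an unadjusted p under 0.05, against 4.39% of all genes. A fit of the compared groups alone gave 0, against 3.98% (edgeR). MRPL50, a mitochondria-specific protein of the large subunit, had 25.6, 28.6 and 36.9974 CPM with the p300 core, against 37.04, 41.5 and 37.2 CPM with D1399Y. Its log2 fold change was -0.34 ± 0.17 with an adjusted p of 1.00 (edgeR), and core replicate 3 and D1399Y replicate 1 rounded to the same level. MRPL42 (-0.27 ± 0.14), MRPS16 (-0.23 ± 0.15), MRPS35 (-0.19 ± 0.13), MRPL58 (0.24 ± 0.17) and MRPS2 (0.25 ± 0.19) were next with the same adjusted p. MRPL58 had 47.8, 43.4 and 43.6 CPM with the p300 core, against 40.6, 35.03 and 38.6 CPM with D1399Y, which did not overlap. The core lay above every D1399Y library for 3 members (MRPL22, MRPL58 and MRPS17, 3.90%, against 5.22% of all genes) and below it for 4 (MRPL50, MRPS16, MRPS18C and MRPS35, 5.19%, against 4.76%). The median log2 difference of the 77 genes was 0.018, with 44 above 0, against -0.0028 over all genes tested. It was -0.063 without core replicate 1, 0.041 without core replicate 2, 0.074 without core replicate 3, 0.053 without D1399Y replicate 1, 0.085 without D1399Y replicate 3, -0.050 without D1399Y replicate 2, -0.014 with the length and GC offset and 0.14 in the CV41 libraries, which hold replicates 1 and 2 of both groups.

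The p300 core against VP64 compares the activators. No member passed the test (0.00684% of all genes did) and 0 had an unadjusted p under 0.05, against 2.07% of all genes (DESeq2: 0 and 0). These p-values also rest on a spread estimated from all libraries, dCas9 included. Without dCas9 replicate 3, 3 members (3.90%) had an unadjusted p under 0.05, against 4.299% of all genes. A fit of the compared groups alone gave 3 members (3.90%), against 5.33% (edgeR). MRPL15, a large-subunit protein with a bacterial counterpart, had 60.7, 56.7 and 53.5 CPM with the p300 core, against 70.0038, 75.8 and 59.7 CPM with VP64, a log2 fold change of -0.27 ± 0.15 with an adjusted p of 1.00 (edgeR). MRPS16, of the small subunit, had 72.9, 70.5 and 63.2 CPM with the p300 core, against 77.7, 93.96 and 78.02 CPM with VP64, a log2 fold change of -0.27 ± 0.15, and its groups did not overlap. The remaining members named by their p were MRPL50 (-0.28 ± 0.17), MRPL1 (-0.32 ± 0.22), MRPS14 (-0.24 ± 0.16) and MRPS7 (-0.25 ± 0.17). The core lay below every VP64 library for 2 members (MRPL1 and MRPS16, 2.60%, against 4.97% of all genes) and above it for 1 (MRPL58, 1.30%, against 5.33%). The median log2 difference of the 77 genes was -0.067, with 18 above 0, against -0.0082 over all genes tested. It was -0.15 without core replicate 1, -0.043 without core replicate 2, 0.010 without core replicate 3, -0.0093 without VP64 replicate 2, -0.14 without VP64 replicate 3, -0.011 with the length and GC offset and 0.0031 in the CV41 libraries.

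**Figure D5:**
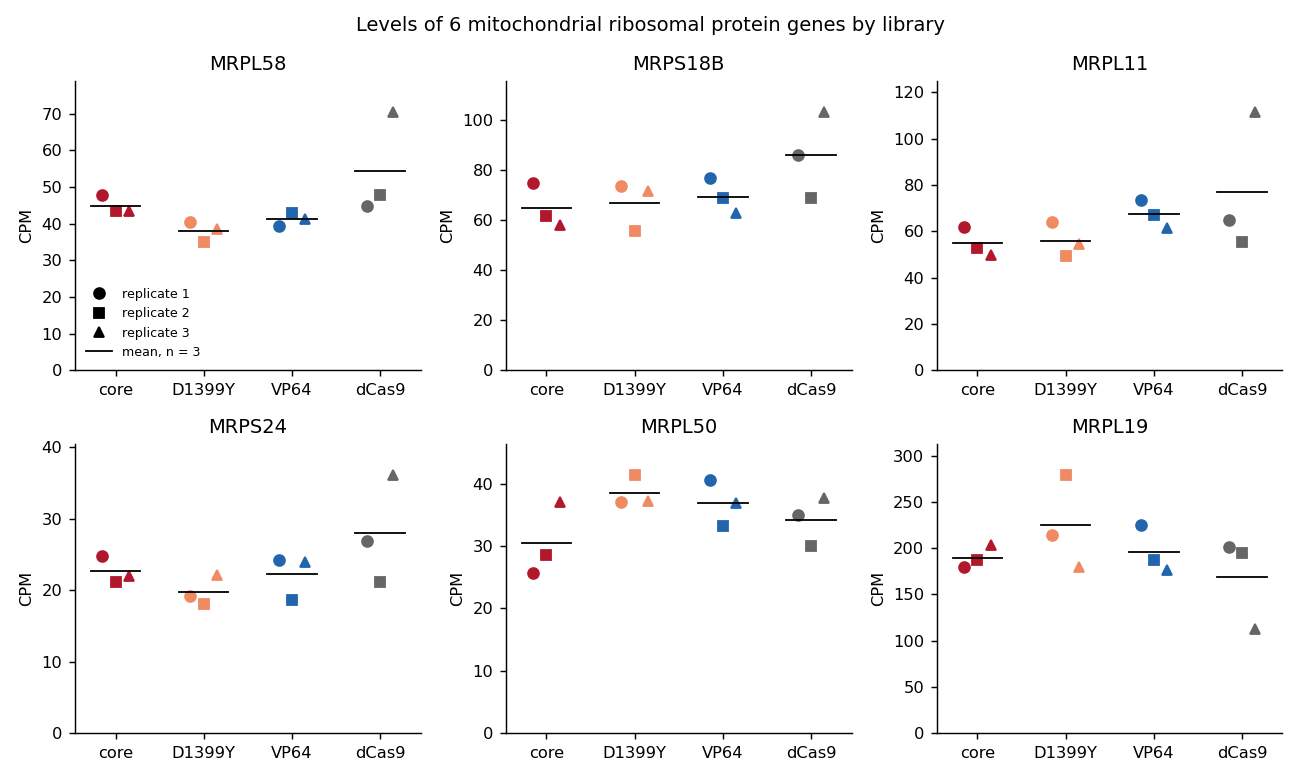
Level (CPM, axes from 0) of 6 genes in each library by group, with group means as lines (n = 3). MRPL58, MRPS18B, MRPL11 and MRPS24 have their highest value in dCas9 replicate 3, and MRPL19 has its lowest there.

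Medians by part of the ribosome lay near each other. Against dCas9, the median log2 difference of the large subunit and of the small subunit was -0.23 and -0.21 for the p300 core, -0.27 and -0.20 for D1399Y and -0.18 and -0.11 for VP64. For genes with a bacterial counterpart and mitochondria-specific genes it was -0.23 and -0.21, -0.27 and -0.21, and -0.18 and -0.17 in the same order of proteins. Leaving out dCas9 replicate 3, the large and the small subunit had -0.031 and -0.028 for the p300 core, -0.056 and -0.0080 for D1399Y and 0.018 and 0.058 for VP64, and the genes with a bacterial counterpart and the mitochondria-specific genes -0.0097 and -0.053, -0.031 and -0.024, and 0.059 and 0.013. These are descriptions, and the differences between the parts were not tested.

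Other genes of mitochondrial translation gave 0 calls as well, among 80 tested genes in 5 lists and 5 comparisons (edgeR). At an unadjusted p under 0.05 there were 5 values in all, and DESeq2 gave 0 calls and 5 such values. Of the 80 genes, edgeR gave 2 for the p300 core, 0 for D1399Y and 2 for VP64 against dCas9. It gave 0 for the core against D1399Y and 1 for the core against VP64. In the same order 3.08%, 6.07%, 3.08%, 1.86% and 2.07% of all genes tested had such a p. Of mitoribosomal proteins with other symbols, 5 were tested, and AURKAIP1, a small-subunit protein, had a log2 fold change of -0.50 ± 0.24 for VP64 against dCas9 (adjusted p = 0.924, edgeR), and -0.19 without dCas9 replicate 3. CHCHD1, also of the small subunit, was at -0.39 ± 0.18 for the p300 core against dCas9 (adjusted p = 0.872, edgeR), and -0.21 without that library. The medians of these 5 genes against dCas9 were -0.39 for the p300 core, -0.30 for D1399Y and -0.066 for VP64, and -0.040, -0.11 and 0.060 without dCas9 replicate 3. For the 25 assembly and ribosomal RNA modification factors the medians were -0.17, -0.19 and -0.054 with all libraries and -0.027, -0.026 and 0.11 without that library, with YBEY, an RNA nuclease, at -0.35 ± 0.18 and TFB1M, which methylates the small ribosomal RNA, at -0.27 ± 0.14 for VP64 (both adjusted p = 0.924, edgeR). YBEY was at -0.25 and TFB1M at -0.17 without dCas9 replicate 3. For 16 translation factors they were -0.10, -0.079 and -0.061 with all libraries and -0.042, -0.050 and -0.0048 without it. For VP64 against dCas9, MTRFR, a release factor that acts on stalled ribosomes, was at -0.39 ± 0.16 and GFM1, an elongation factor, at 0.39 ± 0.18 (both adjusted p = 0.924, edgeR), and they were at -0.30 and 0.24 without dCas9 replicate 3.

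For 17 mitochondrial aminoacyl-tRNA synthetases, which charge the transfer RNAs, the medians against dCas9 were 0.052 for the p300 core, 0.050 for D1399Y and 0.059 for VP64 with all libraries and -0.0022, 0.043 and 0.098 without dCas9 replicate 3. HARS2, which charges the transfer RNA for histidine, was at -0.35 ± 0.14 for the p300 core against dCas9 (adjusted p = 0.872, edgeR), and at -0.24 without that library. For 17 genes of mitochondrial transcription and its nuclear regulators they were -0.00072, 0.060 and 0.062 with all libraries and -0.034, 0.11 and 0.091 without dCas9 replicate 3. In dCas9 replicate 3 these last lists had a median log2 ratio of 0.018 and -0.074, while the assembly factors had 0.43 and the translation factors 0.16. TFB2M, a mitochondrial transcription factor, had the smallest unadjusted p of these lists for the p300 core against VP64, with a log2 fold change of -0.48 ± 0.16 and an adjusted p of 1.00 (edgeR). Cytosolic ribosomal protein genes (82 tested) had medians of -0.30, -0.18 and -0.24 against dCas9, and respiratory chain subunit genes (86 tested) -0.26, -0.29 and -0.20, with 0 calls in each (edgeR). At an unadjusted p under 0.05 there were 3, 0 and 0 cytosolic and 4, 5 and 3 respiratory chain genes. In the same comparisons 3.08%, 6.07% and 3.08% of all genes were. When dCas9 replicate 3 was left out, the medians were -0.12, -0.014 and -0.066 for the cytosolic and -0.058, -0.080 and -0.0032 for the respiratory chain genes.

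The summed level of markers of the cell line was highest in the same library, but not that of every marker. The sum of 7 markers of the line was 324 to 382 CPM with the p300 core, 322 to 365 CPM with D1399Y, 330.1 to 372 CPM with VP64 and 329 to 487 CPM with dCas9, the highest in replicate 3. VIM (238 CPM) and GATA3 (33.9 CPM) had their highest level in dCas9 replicate 3. EPCAM had 6.40 CPM there, against 11.2 CPM in VP64 replicate 2, and LHX1 had 11.3 CPM in both dCas9 replicates 1 and 3. Of 6 markers of other cell types, 3 to 5 had counts in each library, and their sum was 21.6 to 28.5 CPM with the p300 core, 17.8 to 20.5 CPM with D1399Y, 18.5 to 23.9 CPM with VP64 and 20.005 to 27.4 CPM with dCas9. Their part in the differences of the 77 genes was not tested.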

How the data were processed

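The authors deposited 1 table of raw counts per library, in whole numbers for 40709 RefSeq transcripts, per the submitters' processing notes, which name the build hg19 and the tools DESeq2 1.6.2, R 3.1.2, Bowtie2, SAMtools and CASAVA. Strand use and handling of duplicate reads were not given in the sources used here. Transcripts were named through RefSeq (39324) and GENCODE 29 (526), both on GRCh38, and 859 unnamed transcripts held 1.069% of counts. Counts were summed per gene, without the 12 noncoding (NR) transcripts of members. Lengths and GC content are medians over the GENCODE transcripts of a gene, those paired with NR transcripts included, and cover 94.3% of genes tested. For MRPL42 this gave 2105 bases, the length of its NR transcripts. Its 2 counted transcripts were paired with sequences of 15582 bases. The level of 55.1 CPM per kb of MRPL42, and so its place in the order, is therefore uncertain and could be far lower.

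edgeR 4.0.16 in R 4.3.3 was run with TMM factors, filterByExpr (minimum count 10, minimum total 15) and the quasi-likelihood test, two-sided, in 1 fit of 4 group means, with Benjamini-Hochberg adjustment over 14621 genes, and was tested on simulated data. A log2 fold change is printed with its standard error. The fits were repeated with DESeq2 1.42.0, limma-voom (limma 3.58.1), upper-quartile and RLE factors, other filters, the replicate number as a block, the 10 libraries labelled CV41, that label as a covariate, the compared groups alone, 1 transcript per gene, NR transcripts added, an offset for length and GC content, and each library left out. An offset that also used the count per base was added after the data were examined.

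The members, lists and comparisons were chosen with earlier results of these data known. Genes named are the 6 members of smallest unadjusted p per comparison, the 6 highest and 4 lowest by level, MRPS18A, MRPS18B, MRPS18C and MRPS30, and of the other lists those among the 2 of smallest p per list. Others are marked where they appear or belong to counts of 5 or fewer. Libraries of the same replicate number deviated together over genes in D1399Y and dCas9 (correlations 0.24, 0.49 and 0.50) and in the p300 core and VP64 (0.28, 0.25 and 0.36), so the numbers were taken as pairs, from the data alone, in these 2 comparisons and not in the other 3. The labels do not state that the replicate number is a shared batch, and these correlations do not establish it. The main fit has no block, so its p-values and standard errors do not use these pairs, and the blocked fit is an alternative.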

Additional observations from a re-analysis of the deposited data

Results flagged for a closer look

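Noncoding (NR) RefSeq transcripts of 6 of the 77 genes, left out of all comparisons, held counts in every library. Over the 12 libraries MRPL42 had 7552 counts in 3 such transcripts, 58.7% of all counts of the gene, and MRPL49 had 4036 in 2 (64.7%). MRPS2 had 3305 in 4 (79.0%), MRPL10 had 1714 in 1 (33.2%), MRPL30 had 1694 in 1 (32.5%) and MRPS14 had 1231 in 1 (49.7%). They are given because signal lies outside the transcripts that were compared, above the 3 counts that a count of 0 allows. Noncoding and coding transcripts of a gene share exons, and which of them a read came from cannot be told from the tables.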

How the results depend on the processing

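No member passed the test in any of the 5 comparisons under any of the 26 alternatives, and the lowest adjusted p of a member was 0.195 (edgeR, D1399Y against dCas9 without dCas9 replicate 2). All 780 values of named members kept their direction and their side of the threshold. The median log2 difference of the 77 genes ran, over the fits that each leave out 1 library, between -0.30 (without dCas9 replicate 2) and 0.052 (without dCas9 replicate 3) for VP64 against dCas9, and between -0.37 and -0.030 without the same libraries for D1399Y against dCas9. The cause of these shifts was not tested. Without dCas9 replicate 2, 12 members for the p300 core, 21 for D1399Y and 7 for VP64 had an unadjusted p under 0.05 against dCas9, where 4, 3 and 1 had with all libraries. These are 15.6%, 27.3% and 9.09% of members, beside 13.9%, 20.7% and 12.8% of all genes in the same fits. Without dCas9 replicate 3 there were 0, 1 and 1 such members in the same order (0%, 1.30% and 1.30%), beside 2.88%, 2.53% and 4.22% of all genes. limma-voom called 0 members and gave 1, 2 and 0 in the same order, and 1 for the core against D1399Y. Under the replicate block the medians were -0.21 for the p300 core, -0.26 for D1399Y and -0.16 for VP64 against dCas9, 0.032 for the core against D1399Y and -0.064 for the core against VP64, with 0 members called and 7 members of D1399Y against dCas9 (9.09%, beside 10.9% of all genes) at an unadjusted p under 0.05. With NR transcripts added, the share of counts was 0.406% for the p300 core, 0.401% for D1399Y and 0.420% for VP64, and with 1 transcript per gene 0.310%, 0.307% and 0.323%, which follows from the transcripts counted. Members had 31 to 973 counts per library, and the smallest difference that such counts in 3 libraries a group could show was not estimated. Same-numbered libraries were taken as pairs only where every correlation was over 0.1. The p300 core and dCas9 (correlations 0.11, 0.32 and -0.18), VP64 and dCas9 (0.47, 0.032 and 0.23) and the core and D1399Y (0.43, 0.18 and 0.015) missed this rule. Most of these correlations were still above 0, so a shared deviation is not excluded there.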
